A study of Mus musculus with 7 samples.

Results

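The genes described here are the cold-inducible RNA-binding protein genes Rbm3 and Cirbp and 8 genes of the circadian clock, Clock, Npas2, Per1, Per2, Cry1, Cry2, Nr1d1 and Dbp. They were picked by symbol from 32212 gene identifiers, and each of the 10 matched 1 identifier. Rbm3 was put on the list because its level differed between the groups in an earlier look at these same libraries, and the clock genes were added to ask whether they hint at another hour of sampling, so the differences of all 10 between the groups are given below as a description. Their counts past a threshold stand beside the same share over all genes, and nothing is read from them. Of the 10 genes, 9 passed the expression filter (at least 0.5 FPKM in at least 3 libraries), and Npas2 did not. FPKM are reads counted for a gene, scaled for its length and for the reads counted in the library.

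mRNA was sequenced from bulk tumours grown under the skin of wild-type C57BL/6J mice from LLC cells, the Lewis lung carcinoma line of mouse origin. The control group comprised 4 libraries from tumour-bearing model mice that received no treatment, and the ZQD group 3 libraries from tumour-bearing mice given the herbal medicine Ze-qi decoction (ZQD) at its high dose of 42.67 g/kg. Mice were 6 weeks old at injection and were assigned to groups 3 days later, and the labels give both day 21 and day 22 as the end of the experiment. The labels give neither the hour at which tumours were taken nor the body temperature of the mice. They do not say that each library came from a separate mouse, so the spread between libraries need not be that between mice.

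In mammals the clock is a feedback loop of transcription. CLOCK or its paralogue NPAS2 pairs with BMAL1, encoded by Arntl, and switches on genes that carry an E-box, among them Per, Cry, Nr1d1 and Dbp. PER and CRY proteins then return to block that pair, while NR1D1 (REV-ERB alpha) represses Arntl and Npas2, so that Arntl and Npas2 peak at about the opposite time of day from Nr1d1, Dbp and the Per genes in peripheral tissues. RBM3 and CIRBP are small glycine-rich RNA-binding proteins whose transcripts go up on mild cooling and down on heating. CIRBP is also known to link the daily body temperature rhythm to the clock through the Clock transcript.

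The bases before start sites were searched for the exact letters of the E-box and of other clock motifs. Motifs elsewhere in a gene, or with other letters, were not looked for, so a gene without a match may still carry one. RefSeq promoter windows (GRCm38.p6) were found for 8 of the 10 genes; Rbm3 and Per2 had no entry. The 250 bases before each start were searched on both strands for the E-box CACGTG, the D-box TTATGTAA, which DBP, TEF and NFIL3 bind, and the half-site AGGTCA of REV-ERB receptors. The E-box was found before 1 of the Per1 starts and before Cry1, against 6.02% of 32851 promoter windows of that length. AGGTCA stood before 1 start each of Clock and Per1 (14% of all windows), and none of the 8 genes held a D-box there (0.819%). Among clock genes outside the list, Ciart held 3 E-boxes (0.0609% of windows held 3 or more), and Bhlhe41 and both starts of Tef held 1. Per3 held 2 D-boxes (0.0183% held 2 or more). Bhlhe40 had no entry and was not searched. Stretches of 4 genes are shown, as the genes on the list with an E-box and the other clock genes with more than 1 match of a motif. Each is written 5′ to 3′ on the gene's strand with the motif in capitals, the Ciart stretch with the last 2 of its E-boxes:
Per1: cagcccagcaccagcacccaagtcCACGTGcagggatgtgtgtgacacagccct
Cry1: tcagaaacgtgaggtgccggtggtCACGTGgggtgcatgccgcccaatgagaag
Ciart: gaggCACGTGcagaaccgCACGTGtctg
Per3: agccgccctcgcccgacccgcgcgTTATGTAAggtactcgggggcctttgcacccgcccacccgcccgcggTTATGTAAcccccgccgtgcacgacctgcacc

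The Per1 stretch lies at chr11:69098759-69098812 on the plus strand, inside the Per1 gene of GENCODE M21 but in none of its exons. The Cry1 stretch lies at chr10:85185085-85185138 on the minus strand, outside annotated genes. The Ciart stretch, at chr3:95882263-95882290 on the minus strand, lies in no annotated exon and within the oppositely oriented gene C920021L13Rik. It was printed shorter than the others because the stretch with all its E-boxes and longer flanks overlaps an annotated exon. That of Per3, at chr4:151044792-151044894 on the minus strand, lies in the gene Camta1 and in no exon. A match of letters is not a measured binding site.

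Libraries held 32065288 to 49914394 counted reads. Their mitochondrially encoded reads were 5.18% to 7.96% of the total in controls and 8.78% to 11.1% in ZQD, so this share did not overlap between the groups. The summed FPKM of each of 12 lists of cell type markers did overlap between the groups, and no marker was at 0 in every library. Single libraries stood apart all the same. Adipocyte markers summed to 104.8 FPKM in ZQD 1 and to 2.34 to 23.2 in the other libraries. Fibroblast markers reached 239.9 FPKM in ZQD 2 against 37.4 to 144.9 elsewhere, and erythroid and platelet markers 414.1 against 61.5 to 242.3. Keratinocyte markers reached 9.84 FPKM in ZQD 2 against 0.63 to 2.87 elsewhere, though only 1 of those 8 genes passed the filter. Skeletal muscle markers were highest in control 1 (29.4 FPKM, against 2.23 to 9.999). The labels call the cell type tumour cell. Macrophage and monocyte markers summed to 434.6 to 602.8 FPKM, mostly from Cd68 and C1qa, and epithelial markers to 7.69 to 34.4, mostly from Krt19. Such sums hide less abundant markers. Within the macrophage list, Itgam was at 6.01 to 10.2 FPKM in controls against 13.5 to 18.6 in ZQD. Mrc1 was at 4.55 to 11.2 against 13.7 to 47.6, and the other markers of that list overlapped. Means were higher in ZQD for 8 of 8 endothelial, 8 of 8 T cell and 7 of 8 macrophage markers, and for 1 of 8 epithelial markers. Sums of different lists are not shares of cells, and no marker that defines LLC cells was fixed. In such bulk samples, fewer cells of a type and less RNA per cell cannot be told apart.

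Rbm3 (ENSMUSG00000031167) was by far the most abundant of the 10 genes, with a mean FPKM above that of 98.1% of the genes tested. Controls 1 to 4 held 82.3, 95.4, 107.5 and 90.4 FPKM, and ZQD 1 to 3 held 132.0, 148.8 and 160.1. Every ZQD library thus lay above every control, with means of 93.9 ± 10.5 (SD, n = 4) and 147.0 ± 14.1 (SD, n = 3). Log2 fold changes here and below are differences of mean log2(FPKM + 0.5), ZQD less control, and that of Rbm3 was 0.65 (SE 0.112); leaving out any 1 library gave 0.58 to 0.72. These values rest on 16189 to 27033 reads per library, so counting error is a minor part of their spread. The antisense gene Rbm3os shares 94 of 4698 exonic bases with Rbm3 and was at 0.366 to 1.20 FPKM. The mitochondrial read share separated the same libraries, and with reads scaled without mitochondrially encoded genes the Rbm3 value was 0.70.

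Cirbp (ENSMUSG00000045193), the closest relative of Rbm3 on the list, did not share that pattern. It was at 13.3, 13.9, 14.1 and 16.2 FPKM in the controls against 14.0, 18.5 and 13.2 in ZQD, so the groups overlapped and 2 of 3 ZQD libraries lay within the range of controls or just below it. Its log2 fold change was 0.07 (SE 0.128), with -0.07 without ZQD 2 and -0.03 on the TPM scale. The ratio of Rbm3 to Cirbp FPKM, which no scaling of a library can alter, was 6.20, 6.88, 7.64 and 5.58 in controls and 9.46, 8.04 and 12.1 in ZQD. It did not overlap between the groups, but this carries over the Rbm3 difference that put the gene on the list and is no separate result. Deviations of both genes from their group means had a Pearson r of 0.02 over the 7 libraries.

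Of the activators, Clock (ENSMUSG00000029238), the DNA-binding partner of BMAL1, was at 3.95, 4.53, 5.40 and 4.42 FPKM in controls against 5.21, 5.67 and 5.52 in ZQD. Control 3 lay within the ZQD range, and the other controls were below it. The log2 fold change was 0.24 (SE 0.112; 0.18 to 0.32 with 1 library left out). Npas2 (ENSMUSG00000026077) was near the limit of detection, at 0.159, 0.0859, 0.130 and 0.0636 FPKM in controls against 0.159, 0.248 and 0.186 in ZQD. Those levels are 38, 16, 20 and 12 reads against 28, 46 and 31, and ZQD 1 lay at the level of control 1. Clock was 22.8 to 69.5 times as abundant per length as Npas2 within a library.

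Of the 4 Per and Cry repressor genes on the list, Per1 (ENSMUSG00000020893) was farthest apart between the groups. Controls 1 to 4 held 12.0, 12.5, 17.6 and 21.3 FPKM, and ZQD 1 to 3 held 23.5, 18.3 and 24.1. ZQD 1 and ZQD 3 exceeded every control, whereas ZQD 2 lay below control 4, so the groups overlapped. Means were 15.8 ± 4.43 (SD, n = 4) and 22.0 ± 3.19 (SD, n = 3), with a log2 fold change of 0.49 (SE 0.204; 0.37 without control 1 and 0.64 without control 4). Per2 (ENSMUSG00000055866), its paralogue, was at 1.22, 2.06, 1.89 and 1.22 FPKM in controls against 1.59, 2.35 and 1.90 in ZQD. Its order over libraries differed from that of Per1, with control 4 among the highest controls for Per1 and among the lowest for Per2. The Per2 log2 fold change was 0.23 (SE 0.190; 0.12 without ZQD 2 and 0.34 without ZQD 1).

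Cry1 (ENSMUSG00000020038), a cryptochrome that blocks the CLOCK and BMAL1 pair, was at 6.10, 7.54, 4.66 and 5.69 FPKM in controls against 6.05, 5.97 and 5.55 in ZQD. All ZQD libraries fell within the range of controls, and the log2 fold change of -0.01 (SE 0.144) had the other sign under 3 of the 4 scalings tried. Cry2 (ENSMUSG00000068742) was at 3.76, 3.41, 3.73 and 4.41 FPKM in controls against 2.59, 4.10 and 3.35 in ZQD. ZQD 1 was the lowest library and control 4 the highest. The log2 fold change was -0.18 (SE 0.149), and -0.04 without ZQD 1.

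Nr1d1 (ENSMUSG00000020889) had the widest range of the tested genes on the list, with a 2.44-fold difference between its lowest and highest library. It was at 4.56, 4.89, 5.49 and 7.10 FPKM in controls, and ZQD held both extremes, 3.18 in ZQD 1 and 7.76 in ZQD 2, with 4.90 in ZQD 3. The log2 fold change of -0.12 (SE 0.258) was 0.17 without ZQD 1 and -0.41 without ZQD 2. Its SD within groups on the log2 scale was 0.42, larger than that of 90.2% of the genes tested. Adipocyte markers were highest in ZQD 1 and fibroblast, keratinocyte and blood markers in ZQD 2. These libraries held the lowest and highest value of Nr1d1, and the part of the markers in its spread was not tested. Dbp (ENSMUSG00000059824), an output factor whose transcript swings widely over the day in liver, was at 1.00, 0.971, 1.26 and 1.33 FPKM in controls against 1.30, 1.15 and 1.11 in ZQD. ZQD lay inside the control range, and the log2 fold change was 0.04 (SE 0.138; -0.03 on the TPM scale). Dbp spanned only 1.37-fold over the 7 libraries, the smallest span of the 10 genes. Reads were not stated to be counted by strand, and Nr1d1 shares 263 of 3077 exonic bases with Thra (4.26 to 7.53 FPKM) and Dbp 539 of 2993 with Sphk2 (6.32 to 8.98), so reads there may come from either gene.

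**Figure D1:**
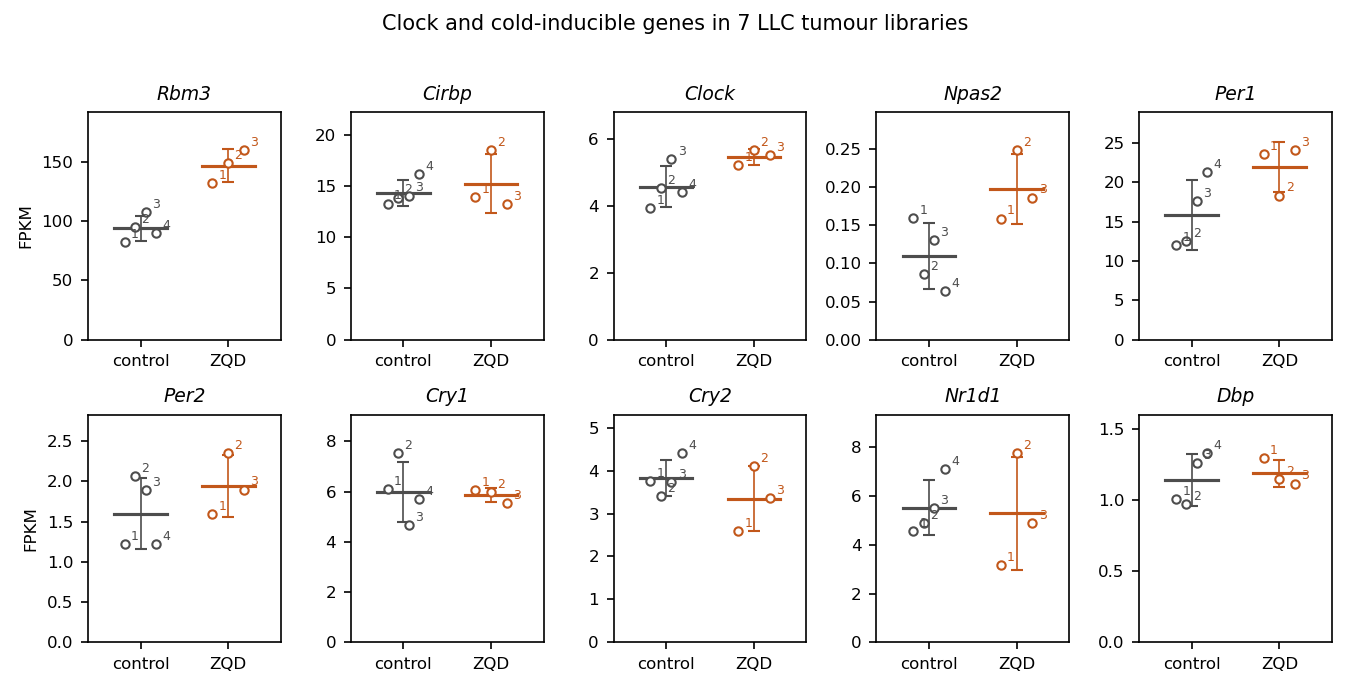
FPKM of the 10 genes in each library (points, numbered by replicate), with the mean (line) and SD (bar) of 4 control and 3 ZQD libraries; every axis starts at 0. Rbm3 is the gene whose groups do not overlap, at 82.3 to 107.5 FPKM in controls against 132.0 to 160.1 in ZQD, while Nr1d1 has both its extremes in ZQD.

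Ordered by mean FPKM over the 7 libraries, the genes ran from Rbm3 (116.6) through Per1 (18.5), Cirbp (14.7), Cry1 (5.94), Nr1d1 (5.41), Clock (4.96), Cry2 (3.62), Per2 (1.75) and Dbp (1.16) to Npas2 (0.147). Rbm3 was above Per1 in every pair of libraries, as was Cirbp above Cry1, Cry2 above Per2 and Dbp above Npas2. Ranges of the other neighbours in that order overlapped.

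The limma fit (a linear model with moderated variances) over 14838 genes gave 0 genes (0%) with a Benjamini-Hochberg adjusted p under 0.05, and 0 of the 9 genes on the list that were tested. At an unadjusted p under 0.05 it held 15.5% of all genes, 5.21% higher in ZQD and 10.3% lower; on the list 2 were higher, Rbm3 and Per1, and 0 lower. Groups did not overlap for 1 of the 9, Rbm3, where 5.35% of all genes were higher in that way and 9.84% lower. edgeR on reads rebuilt from the FPKM called 0 of the 9 and 0% of all genes. DESeq2 on the same reads called 1 of the 9, Rbm3, and 3.85% of all genes with an adjusted p, 2.2% higher and 1.65% lower. The median log2 fold change was 0.07 over the 9 genes and -0.04 over all genes tested.

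The rest of the core clock was measured in the same fit. Of 13 further genes 9 passed the filter: 0 were called by limma or by edgeR, 3 had an unadjusted p under 0.05, all of them lower in ZQD (10.3% of all genes), and 1 was called by DESeq2 (3.85%). The 3 were Bhlhe40, Bhlhe41 and Ciart. Bhlhe40 (ENSMUSG00000030103), which encodes the E-box repressor DEC1 and is also induced by low oxygen, was at 27.7, 19.7, 26.0 and 28.5 FPKM in controls against 12.1, 19.8 and 11.6 in ZQD. ZQD 1 and ZQD 3 lay below every control, and ZQD 2 just above control 2. The groups differed by -0.82 in log2 fold change (SE 0.201), and by -1.06 without ZQD 2. The adjusted p was 0.168 in limma, 0.176 in edgeR and 0.0137 in DESeq2. Bhlhe41, its paralogue, was at 1.69 to 2.26 FPKM in controls against 1.02, 1.77 and 1.23 in ZQD (log2 fold change -0.43, limma adjusted p = 0.277). Ciart, a repressor that binds BMAL1, was at 2.48 to 3.57 FPKM in controls against 1.52, 2.63 and 2.47 in ZQD (-0.42, and -0.23 without ZQD 1; limma adjusted p = 0.31).

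Arntl (ENSMUSG00000055116), the partner of CLOCK, was at 10.1, 8.27, 9.15 and 7.51 FPKM in controls against 8.36, 6.66 and 8.65 in ZQD. These ranges overlapped, and the log2 fold change was -0.14 (SE 0.129; -0.03 without ZQD 2), with an adjusted p of 0.622 in limma. Its paralogue Arntl2 had 0.10 and the D-box repressor Nfil3 -0.14. The receptor gene Nr1d2 (-0.09), the DBP relative Tef (0.06) and Per3 (0.00) were closer to 0, and the signs of these 3 and of Arntl2 and Nfil3 turned when some single libraries were left out. Hlf, another DBP relative, did not pass the filter. The 5 genes with an E-box match in the searched windows thus had log2 fold changes of 0.49 (Per1), 0.06 (Tef), -0.01 (Cry1), -0.42 (Ciart) and -0.43 (Bhlhe41). The D-box gene Per3 was at 0.76 to 1.10 FPKM in all libraries. Rbm3, Per2 and Bhlhe40 had no promoter window and were not searched.

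**Figure D2:**
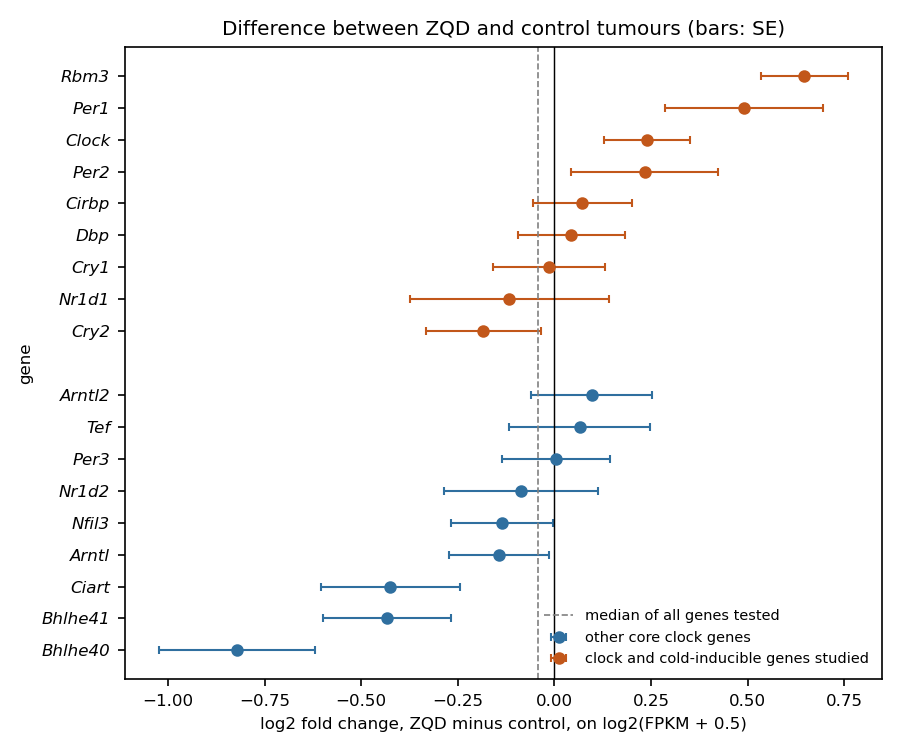
Log2 fold change (ZQD minus control on log2(FPKM + 0.5), points) with SE (bars) for the 9 tested genes of the list (orange) and 9 other core clock genes (blue); the dashed line is the median of all genes tested, -0.04. Rbm3 and Per1 lie farthest to the right, at 0.65 and 0.49, and Bhlhe40 farthest to the left, at -0.82.

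The 2 arms of the clock move in opposite directions over the day, so their balance was compared between the groups. For each library, the mean log2(FPKM + 0.5) of Arntl, Npas2, Clock and Nfil3 was subtracted from that of Dbp, Nr1d1, Nr1d2, Per1, Per2, Per3, Tef and Ciart. The difference was -0.44, -0.19, -0.08 and 0.12 in controls 1 to 4 and -0.20, -0.01 and -0.27 in ZQD 1 to 3. All ZQD libraries lay inside the control range, and the means were -0.15 ± 0.23 (SD, n = 4) and -0.16 ± 0.14 (SD, n = 3). With Dbp, Nr1d1 and Nr1d2 against Arntl and Npas2 alone, the values were 0.48 to 1.33 in controls and 0.63 to 1.14 in ZQD. A shift of hour between the groups was thus not detectable in this balance, which cannot tell a shared hour from a weak rhythm in these tumours. The balance is also blunt. Npas2, which is in both versions, did not pass the filter and lay below the 0.5 added to each FPKM. Within the first arm Per1 (log2 fold change 0.49) and Ciart (-0.42) went opposite ways and offset each other in the mean. In the second arm Clock (0.24) and Npas2 (0.20) likewise offset Arntl (-0.14) and Nfil3 (-0.14), as did Npas2 and Arntl in the short version. Per1, which many stimuli besides the clock induce, and Bhlhe40 are the clock genes that were farthest apart between the groups.

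**Figure D3:**
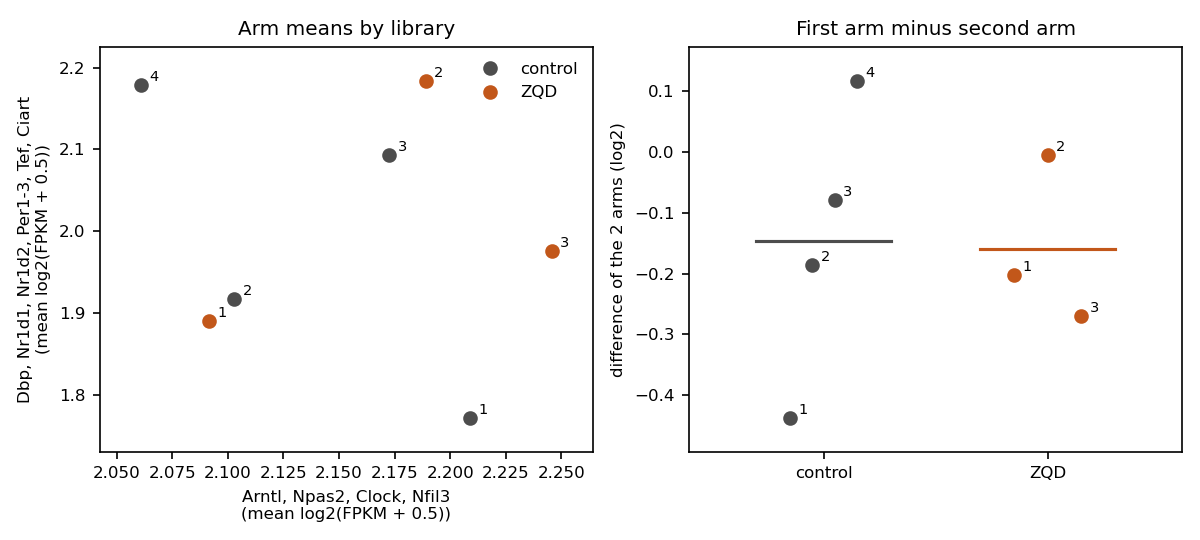
Left: mean log2(FPKM + 0.5) of the 8 genes Dbp to Ciart against that of Arntl, Npas2, Clock and Nfil3 in each library, numbered by replicate; right: their difference (log2), with the group mean as a line. Controls span -0.44 to 0.12 and the 3 ZQD libraries lie within that span.

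Variation of the clock genes between libraries of a group was read from deviations of log2(FPKM + 0.5) from the group means, which leave out the comparison that chose the genes, over 7 libraries that also share depth and composition. Nr1d1 went with Cry2 (Pearson r 0.96, 0.91 to 0.99 with 1 library left out), with Per3 (0.94) and with Cirbp (0.84, 0.56 without ZQD 2). Per1 went with Dbp (0.86, 0.76 to 0.98), and Dbp with Tef (0.88). Nr1d1 and Dbp had 0.14 (-0.20 to 0.69 with 1 library left out), and Nr1d1 and Per1 0.11 (-0.33 to 0.74). The 2 groups of genes were not separate: Cirbp had 0.72 with Nr1d2 and 0.63 with Tef, and Nr1d1 had 0.49 and 0.44 with them. Rbm3 was closest to Clock (0.89, 0.82 to 0.98) and next to Per2 (0.70). Arntl ran against Cirbp (-0.90) and Nr1d1 (-0.76, -0.52 without ZQD 2). These are descriptions from few libraries, with 5 residual degrees of freedom.

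**Figure D4:**
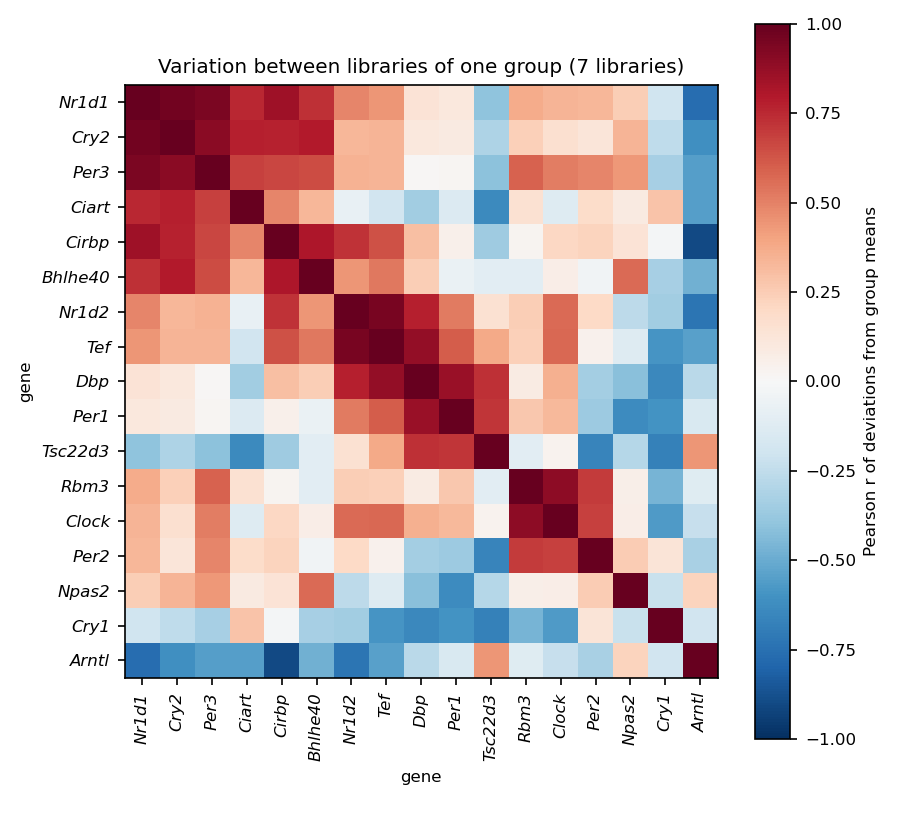
Pearson r between genes of their deviations from group means over 7 libraries (red positive, blue negative). Nr1d1 with Cry2 (0.96), Dbp with Tef (0.88) and Rbm3 with Clock (0.89) are among the darkest red squares off the diagonal, and Cirbp with Arntl (-0.90) is the darkest blue.

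The feedback from NR1D1 on Arntl was also looked at across all 7 libraries, as 1 of 8 relations of Arntl with the genes of the opposite arm, a set chosen after seeing the data. Nr1d1 and Arntl had a Pearson r of -0.62 (two-sided exact permutation p = 0.132, adjusted 0.435) and a Spearman rho of -0.57 (exact permutation p = 0.2, adjusted 0.556). Without ZQD 1 and ZQD 2, the libraries farthest from the Nr1d1 median, r was -0.76. For its paralogue Nr1d2, r was -0.59, and -0.18 without the 2 farthest libraries, so that value rests on them. Within groups, Nr1d2 and Arntl had an r of -0.73 (-0.89 to -0.56 with 1 library left out). All 8 Pearson values were negative, from -0.62 for Nr1d1 to -0.08 for Ciart, and none passed the exact permutation test with Benjamini-Hochberg adjustment (smallest adjusted p 0.435).

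Among 7135 other named genes with a mean of at least 5 FPKM, those whose within-group deviations were most like those of Rbm3 were Dock2 (r 0.98), Bdp1 (0.95), Dyrk1a (0.94), Smchd1 (0.93) and Lemd3 (0.93). For Dbp they were Brd8 (0.98), Med6 (0.97), Tigit (0.96), Ddx49 (0.96) and Far1 (0.95). In all, 10 of the 7135 genes had an r over 0.9 with Rbm3 and 33 with Dbp. The named genes are the highest of that many values. With so few libraries unrelated genes can also reach such an r, and none of these relations was tested.

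Genes that act on or follow the clock were read from lists made with earlier results known. Of 15 kinases, ligases and cofactors, all tested, 0 were called by limma, edgeR or DESeq2, and 1 had an unadjusted p under 0.05, Csnk1d, the kinase that marks PER proteins for decay (15.5% of all genes). Csnk1d was at 24.2 to 27.0 FPKM in controls against 22.2 to 22.6 in ZQD (log2 fold change -0.17, limma adjusted p = 0.311), so its groups did not overlap. The PER partner Nono, at 155.7 to 164.7 and 167.8 to 191.7 FPKM (0.15), did not overlap either. That is 1 gene higher and 1 lower without overlap of 15, beside 5.35% and 9.84% of all genes. Nono was at 0.05 on the TPM scale and 0.10 without ZQD 1, and Csnk1d at -0.28 on the TPM scale. Fbxw11 had -0.16 (-0.26 on the TPM scale) and Nampt -0.04.

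Of 12 clock output genes 11 were tested, with 0 called by limma or edgeR. The 2 called by DESeq2, which called 3.85% of all genes, were Tsc22d3 and Dtx4. Tsc22d3 (ENSMUSG00000031431), which encodes the glucocorticoid-induced leucine zipper, was at 19.7, 14.4, 22.8 and 21.9 FPKM in controls against 40.4, 25.7 and 33.9 in ZQD. Every ZQD library was above every control, and the log2 fold change was 0.74 (SE 0.191), with an adjusted p of 0.176 in limma and 0.00249 in DESeq2. Its deviations within groups had an r of 0.72 with those of Per1, 0.73 with those of Dbp and -0.68 with those of Cry1, so Per1 was not singled out. Dtx4 was at 6.91 to 9.95 FPKM in controls against 5.40 to 6.00 in ZQD (-0.53, limma adjusted p = 0.154, DESeq2 0.0104), and Por had -0.18, and -0.07 without ZQD 1.

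Glucocorticoids are known to induce Per1 and Tsc22d3 directly. Of 11 glucocorticoid-responsive genes 10 were tested: 0 were called by limma or edgeR, 2 had an unadjusted p under 0.05 and were higher in ZQD (5.21% of all genes), and 1 was lower (10.3%). The higher ones were Tsc22d3 and Fkbp5, a chaperone of the glucocorticoid receptor named after its values were seen, at 11.7 to 15.2 FPKM in controls against 21.8, 17.8 and 15.6 in ZQD (0.42, limma adjusted p = 0.218, DESeq2 0.0301). The lower one was Errfi1, an inhibitor of the EGF receptor, at 121.5 to 153.6 and 87.2 to 100.3 FPKM (-0.57, limma adjusted p = 0.146, DESeq2 0.000427). Mt1, the most abundant of the list, had -0.30, and -0.02 without control 4. The list median was 0.09, beside -0.04 over all genes tested.

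Heat-inducible genes, which respond to temperature in the direction opposite to Rbm3 and Cirbp, had log2 fold changes below 0 for 11 of 12, beside 58.2% of all genes tested. The sign was not particular to them: 13 of 15 kinases, ligases and cofactors and 8 of 11 clock output genes were also below 0. By contrast, 4 of 10 glucocorticoid-responsive genes (40%) and 5 of 13 RNA-binding and splicing genes (38.5%) were below 0, a smaller share than over all genes. None of the heat-inducible genes was called by limma or edgeR. At an unadjusted p under 0.05, 7 were lower (10.3% of all genes), and DESeq2 called 2 lower (1.65%), Hspb1 and Hspa1b. The small chaperone Hspb1 was at 26.5 to 38.9 FPKM in controls against 15.3 to 20.9 in ZQD (-0.89, limma adjusted p = 0.154). Hspa1b, which shares reads with its near-identical copy Hspa1a and is uncertain for that reason, had -0.80. The abundant chaperone genes Hsp90aa1 and Hspa8 had -0.25 and -0.22, the latter -0.07 without ZQD 2. The list median was -0.31, beside -0.07 for the kinases, ligases and cofactors and -0.07 for the clock output genes. Groups did not overlap for 5 of the 12 heat-inducible genes, all lower in ZQD, beside 9.84% of all genes. An earlier account of these libraries already showed this list to be lower, so it is no independent support for anything said of Rbm3.

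Of 13 other RNA-binding and splicing genes, 0 were called by limma or edgeR. The splicing factor gene Srsf2 was at 61.0 to 81.5 and 49.2 to 56.2 FPKM (-0.41), while Srsf5 and Hnrnpa1 had 0.16 and -0.01. The list median was 0.07, beside -0.04 over all genes tested.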

How the data were processed

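The authors deposited gene-level FPKM of the 7 libraries, with raw counts of 2 of them, control 1 and control 2. The submitters' processing notes name HISAT2, featureCounts, Subread and DESeq2, with versions, roles, genome build and annotation as not given in the sources used here. In the 2 count files dividing the count by the library total gave the FPKM once a single length per gene was set. These lengths, rounded to a whole base (27421 of 32212 genes), equalled to the base the exon union of GENCODE M21 for 98.2% of 27021 genes that could be compared. With them, reads were rebuilt from the FPKM, and in the 5 libraries with no count file 100% of values came within 0.05 of whole reads. A count of 0 allows up to 3 reads, 0.0601 to 0.0936 FPKM in a gene of 1 kb, for counting error only. Symbols came from a gene name table (98.0% of identifiers matched).

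The main test was limma 3.58.1 with trend in R 4.3.3 on log2(FPKM + 0.5), ZQD against control, for 14838 genes with at least 0.5 FPKM in 3 or more libraries. It was two-sided, and Benjamini-Hochberg adjustment ran over all of them. edgeR 4.0.16 (quasi-likelihood) and DESeq2 1.42.0 ran on rebuilt reads of 14832 genes, and DESeq2 gave no adjusted p for 1733. Other alternatives changed the pseudocount, filter, scaling, trend, library weights, replicate block and left out each library. The scripts were tested on simulated data first. No libraries of a group held identical values, and each pair differed by more than counting error (chi-square per degree of freedom 26.3 to 66.2). The genes, lists and tests were chosen with earlier results of these data known. Named were all 10 genes, every other core clock gene that passed the filter and, from each further list, the 2 of smallest p and the 2 most abundant, except for an item that is not reported here. Marker lists covered skeletal muscle, fat, skin, fibroblasts, endothelium, macrophages, neutrophils, T and B cells, blood, proliferation and epithelium. Figures were drawn with matplotlib 3.10.9.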

Additional observations from a re-analysis of the deposited data

How the results depend on the processing

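Rbm3 kept a log2 fold change between 0.55 (TPM scale) and 0.70 (scaling without mitochondrially encoded genes) under all alternatives that kept every library, and 0.58 to 0.72 with 1 left out. The difference of the clock arms stayed within the spread between replicates, from -0.09 (pseudocount 0.1) to 0.08 (replicate block), and was -0.11 to 0.08 with 1 library left out, so its sign carries no information. The count of genes called, 0 in limma, was 504 with DESeq2 and 1 with the replicate block, which leaves out control 4, and 0 with any 1 library left out. Of the other core clock genes 0 were called, 1 with DESeq2 (Bhlhe40) and 0 with any 1 library left out. The signs of Cirbp, Cry1, Nr1d1 and Dbp turned under at least 1 alternative. The TPM scale moved the median of all genes to -0.15, and it turned 773 higher and 1533 lower genes at an unadjusted p under 0.05 into 377 and 2861, against 1097 and 1082 with median-of-ratios scaling. The replicate numbers were not taken to pair the libraries: deviations of same-numbered libraries had r of 0.25, 0.10 and -0.15. The cause of these differences was not tested. Npas2, with 12 to 46 reads, and Dbp, with 113 to 157, are the members that depth limits most.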

Other observations

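Some clock-linked genes below the expression filter were high in single libraries. Pdk4, a metabolic clock output gene, had 221 reads in ZQD 1 and 6 to 23 in the other 6 libraries. Zbtb16, a glucocorticoid-responsive gene, had 92 reads in ZQD 1, 80 in ZQD 2 and 5 to 21 in the others. Scaled for depth, it was at 0.472, 0.392 and 0.098 FPKM in ZQD 1 to 3 against 0.024 to 0.080 in controls. Its groups thus did not overlap, though ZQD 3 and the controls were near the limit of detection. Of the genes tested, 5.35% were higher in that way. Adipocyte markers were also highest in ZQD 1 and ZQD 2 (104.8 FPKM in ZQD 1 and 23.2 in ZQD 2), and their part in these reads was not tested. These genes were named after their values were seen.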
